A study of Mus musculus with 2 samples.

Results

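Toll-like receptors (TLRs), the accessory proteins that present ligand to them and the adaptor MyD88 were followed through the CD45+ cells of pressure-overloaded mouse hearts. The group was set by gene symbol and comprised 10 genes of the 27809 in the matrix, namely Tlr1, Tlr2, Tlr3, Tlr4, Tlr7, Tlr9, Tlr13, Cd14, Ly96 and Myd88. All 10 were measured, and all 10 had a mean of at least 10 reads per 1000000 reads over the study groups in monocytes and macrophages.

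The study asked how T cells shape cardiac macrophages early after transverse aortic constriction (TAC), a narrowing of the aortic arch that loads the left ventricle with pressure. CD45+ cells were taken 1 week after surgery from hearts of male mice, 8 weeks of age, on a C57BL/6 background (C57BL/6N in the label of the pooled library), and all groups were sequenced in 1 pooled library in which a hashtag marked the group of each cell. The groups were WT sham, CD3e-/- sham, WT TAC, CD3e-/- TAC and CD8-depleted TAC, the last being WT mice given an antibody to CD8 besides TAC. CD3e-/- mice lack T cells from birth, so T cell help was absent during development as well as after surgery, whereas the antibody acted only in the adult. The cells were released by enzymatic digestion, and the sources used here do not tell how many hearts stood behind a hashtag. Each group was therefore 1 sample, no test was possible, and every interval below covers counting error only. The matrix counts reads and not molecules, so these intervals are too narrow even for counting error.

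After filtering, 5263 cells remained, from 835 to 1615 per group, and the groups held between 91899648 and 208758627 reads. Levels are given as reads per 1000000 reads of the summed cells (CPM). Shares of cells with a read are given after each cell was thinned to 34832 reads, which left out 527 shallower cells. Cells were gated on their own CPM. Monocytes and macrophages (3375 cells) carried Csf1r at 200 CPM or more and Lyz2 at 2000 CPM or more, and were split into Lyve1-high (193 cells), Cd209a-high (78), Ly6c2-high (513), Ccr2-high (1212) and the remaining Ccr2-low cells (1379). Xcr1-high cells (155), Cd209a-high cells outside the gate (269), Cd79a-high cells (469) and cells low for both Csf1r and Lyz2 (515) were kept as comparison classes. The Lyve1-high, Ly6c2-high, Xcr1-high and Cd79a-high classes each had 6 of 6 markers of resident macrophages, Ly6c-high monocytes, conventional dendritic cells type 1 and B cells at 2-fold or more over the other cells, and the Cd209a-high cells outside the gate had 7 of 7 markers of conventional dendritic cells type 2. The Ccr2-low class had 4 of 6 macrophage markers, while the Ccr2-high class had 0 of 6 and the Cd209a-high class in the gate 3 of 7, so that these classes are called by their gate. The Ccr2 gate had 741 cells within 1.5-fold of it. Among cells low for Csf1r and Lyz2, Cd3e, the deleted gene, had a read in 31 of 173 WT sham (77.8 CPM) and 25 of 120 WT TAC cells (84.1 CPM), and in 3 of 97 CD3e-/- sham (2.17 CPM) and 7 of 50 CD3e-/- TAC cells (2.45 CPM). Cd3g, a subunit of the T cell receptor complex, had a read in 42 of 173 WT sham and 27 of 120 WT TAC such cells but in 3 of 97 CD3e-/- sham and 0 of 50 CD3e-/- TAC cells. Cd8a had a read in 4 of 75 such cells of CD8-depleted TAC and in 9 of 120 in WT TAC, so that these few cells neither show nor refute the depletion, and the group is called by its label.

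Toll-like receptors recognise conserved microbial molecules and products of damaged cells. TLR1, TLR2 and TLR4 sit at the cell surface, where TLR1 pairs with TLR2 to bind lipopeptides and TLR4 binds lipopolysaccharide with MD-2 (the product of Ly96) and CD14. TLR3, TLR7, TLR9 and TLR13 sit in endosomes and bind double-stranded RNA, single-stranded RNA, unmethylated CpG DNA and a stretch of bacterial ribosomal RNA, respectively. All of these but TLR3 signal through MyD88 to NF-kB and, in endosomes, to interferon regulatory factors, and cardiac macrophages are known to carry several of these receptors.

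Upstream sequences of the 3 members that were past 1.5-fold in CD3e-/- TAC against CD3e-/- sham and had an entry in the RefSeq promoter table (Tlr9, Tlr13 and Myd88) are printed to show the DNA in front of genes that were higher after TAC. Of the 10 members, 6 had an entry in that table, and Tlr4, Tlr7, Cd14 and Ly96 had none. Each line gives 200 bases, from 250 to 51 bases before the annotated start, 5′ to 3′ on the strand of the gene, in build GRCm38.p6, at chr9:106222348-106222547 (plus strand) for Tlr9, chrX:106143025-106143224 (plus strand) for Tlr13 and chr9:119340069-119340268 (minus strand) for Myd88. Capitals mark matches on either strand to GAGGAA (PU.1), GGNNNTTCC (NF-kB core), GAAANNGAA (interferon-stimulated response element core), TGANTCA (AP-1) or CACGTG (TFEB), none of which overlapped here.
Tlr9: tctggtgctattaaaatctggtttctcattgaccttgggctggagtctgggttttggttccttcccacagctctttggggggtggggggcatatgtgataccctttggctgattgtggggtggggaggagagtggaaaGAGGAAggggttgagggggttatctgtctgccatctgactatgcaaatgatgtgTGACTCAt
Tlr13: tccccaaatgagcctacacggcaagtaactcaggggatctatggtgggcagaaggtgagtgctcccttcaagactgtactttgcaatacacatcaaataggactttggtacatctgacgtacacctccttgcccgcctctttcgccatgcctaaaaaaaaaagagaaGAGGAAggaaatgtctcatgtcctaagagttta
Myd88: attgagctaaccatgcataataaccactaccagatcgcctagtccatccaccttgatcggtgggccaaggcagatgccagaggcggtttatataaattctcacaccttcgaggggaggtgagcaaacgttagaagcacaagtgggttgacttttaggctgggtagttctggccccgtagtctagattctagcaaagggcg
The Tlr9 window held GAGGAA from 112 to 107 bases and TGACTCA from 58 to 52 bases before the start, and the Tlr13 window held GAGGAA from 83 to 78 bases before it. The Myd88 window held none of these letters. GAGGAA was found in 18.8% of all 32851 windows of the same length in the table, TGANTCA in 5.57%, GGNNNTTCC in 12.1%, GAAANNGAA in 5.79% and CACGTG in 4.34%. A match describes the letters and is no sign of binding.

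Among the cell classes, the members fell into different orders, and Tlr3 stood apart from all others. Tlr3, the endosomal sensor of double-stranded RNA, reached 283 CPM in Xcr1-high cells summed over all groups, with 79.9% of thinned cells carrying a read. Per group with at least 20 of these cells, the level was 259 CPM in WT sham, 259 CPM in CD3e-/- sham, 317 CPM in WT TAC and 262 CPM in CD8-depleted TAC. The class with the next highest Tlr3, Lyve1-high, had 18.8 CPM with group levels from 9.12 to 30.5 CPM, so the ranges did not overlap. Cd79a-high cells had 2.31 CPM and 0.87% of cells with a read, and all 67 reads there came from WT TAC.

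Summed over all groups, Tlr4, Tlr7 and Ly96 were highest in Lyve1-high macrophages. Tlr4 had 64.1 CPM there (group range 53.3 to 74.7), 52.5 CPM in Ccr2-low, 34.9 CPM in Ccr2-high and 25.1 CPM in Ly6c2-high cells, and each of these classes overlapped the next in its group levels. Tlr7 had 171 CPM in Lyve1-high, 154 CPM in Ccr2-low, 124 CPM in Ly6c2-high and 88.1 CPM in Ccr2-high cells. Neighbours among these classes overlapped in their group levels. Below these 4 classes Tlr7 dropped without overlap, to 17.6 CPM in Cd79a-high and 6.48 CPM in Xcr1-high cells. Ly96 had 61.1 CPM in Lyve1-high and 44.6 CPM in Ccr2-low cells, and its lowest level within the gate outside the small Cd209a-high class was 30.4 CPM in Ccr2-high cells, whose group levels stayed above those of every class further down. The genes for the lipopolysaccharide receptor and its partner MD-2 thus had their highest levels in the same class, although neither was separated from Ccr2-low cells beyond the spread of the groups.

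Summed over all groups, Myd88, Tlr9 and Tlr2 were highest in Ly6c2-high monocytes. Myd88, the common adaptor, had 222 CPM and a read in 77.0% of thinned Ly6c2-high cells, against 135 CPM in Xcr1-high, 104 CPM in Ccr2-high, 65.6 CPM in Ccr2-low and 49.7 CPM in Lyve1-high cells. Tlr9, the sensor of CpG DNA, was sparse, with 26.3 CPM and a read in 23.4% of Ly6c2-high cells and 13.7 CPM in Ccr2-high cells. Tlr2, which forms lipopeptide receptors with TLR1 or TLR6, had 213 CPM in Ly6c2-high, 161 CPM in Ccr2-low and 144 CPM in Ccr2-high cells. Neighbouring classes in the Myd88 order overlapped throughout in their group levels. For Tlr9 and Tlr2 the Ly6c2-high class also overlapped the next. Tlr9 in Ly6c2-high cells lay above Ccr2-high cells in every TAC group but below them in both sham groups. These sham levels were 8.94 against 10.1 CPM in WT and 11.6 against 12.4 CPM in CD3e-/- mice. Tlr2 lay below Ccr2-low cells in CD3e-/- TAC alone, at 174 against 177 CPM. In the Tlr9 order Ccr2-high cells lay above the Cd209a-high cells in the gate, of which only WT TAC held enough, and in the Tlr2 order the Cd209a-high cells outside the gate (83.8 CPM) lay above the cells low for Csf1r and Lyz2 (36.8 CPM).

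Summed over all groups, Tlr13 was highest in Ly6c2-high, Cd14 in Ccr2-low and Tlr1 in Cd79a-high cells. The top class of each overlapped the next in its group levels. In WT TAC, Cd14 had 631 CPM in Ccr2-low but 706 CPM in Ccr2-high and in Ly6c2-high cells. In CD3e-/- sham it had 1006 CPM in Ccr2-low and 1029 CPM in Ly6c2-high cells. Tlr1 in CD3e-/- sham had 66.5 CPM in Cd79a-high and 70.1 CPM in Ccr2-low cells. In the other groups Cd14 and Tlr1 were highest in the class named. Tlr13, the murine sensor of bacterial ribosomal RNA, had 118 CPM in Ly6c2-high, 117 CPM in Ccr2-low, 93.8 CPM in Lyve1-high and 81.3 CPM in Ccr2-high cells. Cd14, the lipopolysaccharide co-receptor, was found in 82.5% of thinned monocytes and macrophages and ranged from 644 CPM in Ly6c2-high to 820 CPM in Ccr2-low cells, with 515 CPM in the small Cd209a-high class of the gate. In Cd79a-high cells Cd14 had 28.3 CPM and a read in 3.50% of cells, the share in a lymphocyte class that should lack the gene. Tlr1, the partner of TLR2, was the only member whose highest level lay in Cd79a-high cells (91.4 CPM, read in 28.6% of cells), followed by Ly6c2-high cells (78.3 CPM, 37.1%). Median depth per cell was 47514 reads in Cd79a-high and 123168 reads in Ly6c2-high cells before thinning.

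**Figure D1:**
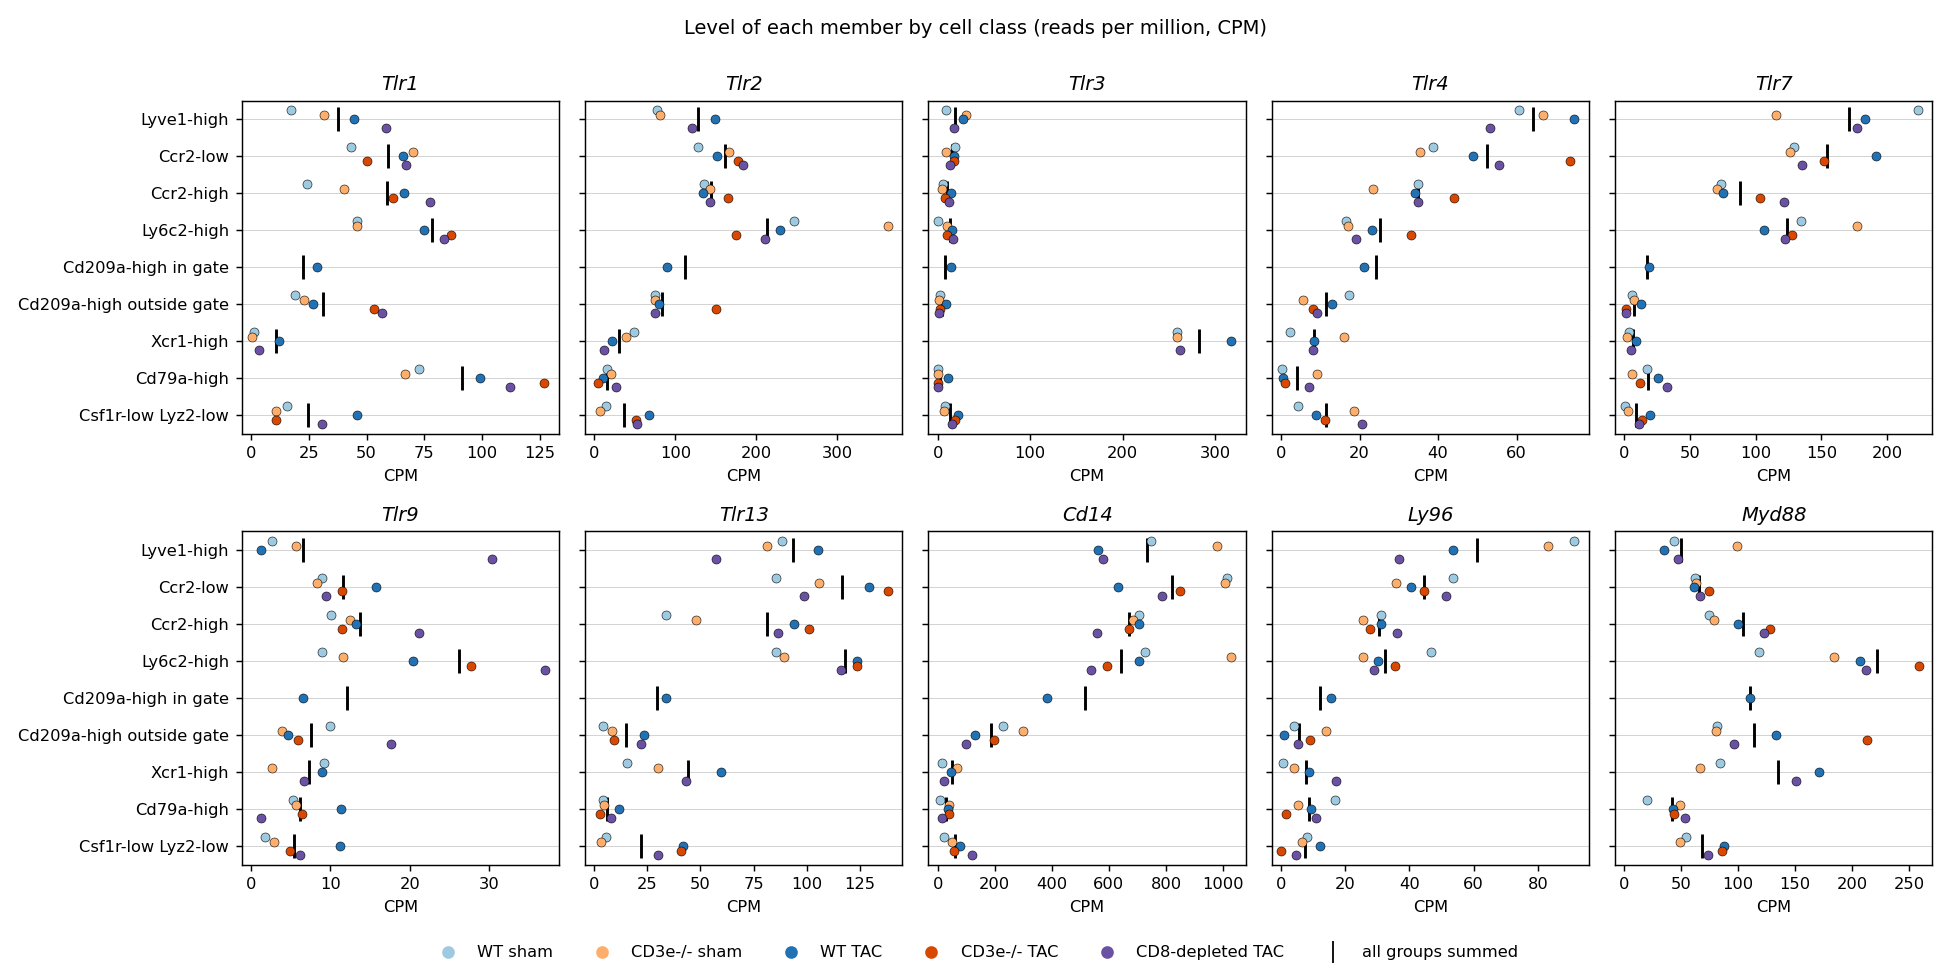
Level of each member in 9 cell classes, in CPM on a linear axis. Points are the study groups with at least 20 cells of a class and black ticks are all groups summed; Tlr3 lies above 250 CPM in Xcr1-high cells alone, while Tlr7 and Cd14 lie high in the Lyve1-high, Ccr2-low, Ccr2-high and Ly6c2-high classes.

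The first comparison asked what TAC did in mice with T cells. In monocytes and macrophages of WT TAC, 3 of 10 members were at least 1.5-fold higher than in WT sham (with 1 CPM added to both) and 0 were lower, while 5.26% of all 8809 genes tested were higher and 4.00% lower. The 3 members were Tlr1, Tlr13 and Tlr9. The median log2 ratio of the members was 0.33, beside 0.03 over all genes tested.

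Tlr1 had 32.3 CPM (95% Poisson interval 30.8 to 33.9) in WT sham, 50.3 CPM in CD3e-/- sham, 65.0 CPM (63.7 to 66.4) in WT TAC, 62.8 CPM in CD3e-/- TAC and 74.0 CPM in CD8-depleted TAC. WT sham was the lowest of the 5 groups and the 3 TAC groups were the highest. The log2 ratio of WT TAC to WT sham was 0.99, a 1.98-fold difference, and the share of thinned cells with a Tlr1 read went from 17.4% (Clopper-Pearson 95% interval 14.2 to 21.0) to 34.7% (31.8 to 37.8), or from 25.04% to 41.2% without thinning. Such shares were higher in each TAC group than in either sham group for every member but Cd14. This held also for Ly96, whose level was lower in WT TAC than in WT sham. The share of all genes that did so was not computed, so it is not read as a result about the members. The Tlr1 level was higher in WT TAC in 4 of 4 gate classes with enough cells. The log2 ratios were 1.41 in Ccr2-high, 1.31 in Lyve1-high, 0.69 in Ly6c2-high and 0.59 in Ccr2-low cells. Tlr1 lies next to its paralog Tlr6 on chromosome 5, and how reads of their shared stretches were counted is not given in the sources used here. Tlr6 had 12.4 CPM in WT sham and 11.8 CPM in WT TAC, a log2 ratio of -0.06. In CD3e-/- mice Tlr6 had 9.48 CPM in sham and 15.2 CPM after TAC, a log2 ratio of 0.63.

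Tlr13 had 65.1 CPM (63.0 to 67.3) in WT sham, 73.1 CPM in CD3e-/- sham, 108 CPM (107 to 110) in WT TAC, 120.4 CPM in CD3e-/- TAC and 96.0 CPM in CD8-depleted TAC. Both sham groups lay below all 3 TAC groups. The log2 ratio of WT TAC to WT sham was 0.72, and the share of thinned cells with a read was 33.4% in WT sham and 50.7% in WT TAC, with 39.1% and 55.4% before thinning. Within Ccr2-high cells Tlr13 went from 33.6 to 93.9 CPM, a log2 ratio of 1.45, against 0.59 in Ccr2-low, 0.53 in Ly6c2-high and 0.25 in Lyve1-high cells. The same gene also stood higher in Xcr1-high cells, with 15.5 CPM in 31 cells of WT sham and 59.8 CPM in 57 cells of WT TAC.

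Tlr9 had 8.65 CPM (7.88 to 9.48) in WT sham, 9.92 CPM in CD3e-/- sham, 14.4 CPM (13.7 to 15.02) in WT TAC, 15.7 CPM in CD3e-/- TAC and 21.9 CPM in CD8-depleted TAC. Again the sham groups were the lowest. The log2 ratio of WT TAC to WT sham was 0.67, but 37.0% of the Tlr9 reads of WT sham monocytes and macrophages came from 5 cells, and under 3 of 10 other settings the ratio lay below 1.5-fold, at 0.39 in the lowest case. In Ly6c2-high cells Tlr9 went from 8.94 CPM in 24 cells to 20.4 CPM in 153 cells.

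Myd88 stayed just under 1.5-fold in WT. It had 67.8 CPM (65.6 to 70.0) in WT sham, 86.5 CPM in CD3e-/- sham, 101 CPM (99.2 to 103) in WT TAC, 140.2 CPM in CD3e-/- TAC and 122 CPM in CD8-depleted TAC, with a log2 ratio of 0.57 for WT TAC to WT sham. The order put WT sham lowest and CD3e-/- TAC highest. Class by class, the ratio was 0.81 in Ly6c2-high and 0.42 in Ccr2-high cells, while Ccr2-low cells had 62.0 CPM in WT sham and 61.2 CPM in WT TAC and Lyve1-high cells went from 43.5 to 34.5 CPM (-0.32).

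Cd14 and Ly96 were the members with negative ratios in WT, and both were less than 1.5-fold. Cd14 had 840.1 CPM in WT sham, 859 CPM in CD3e-/- sham, 663 CPM in WT TAC, 722 CPM in CD3e-/- TAC and 622 CPM in CD8-depleted TAC, so every TAC group lay below both sham groups. The log2 ratio of WT TAC to WT sham was -0.34, made up of -0.69 in Ccr2-low cells (1015 to 631 CPM), -0.42 in Lyve1-high cells and -0.04 in Ly6c2-high cells, with 706 CPM on both sides in Ccr2-high cells. A list of 8 immediate early and heat shock genes known to respond to tissue digestion moved the same way, with all 8 measured, none under 1 CPM, and a summed level of 14533 CPM in WT sham, 12659 CPM in CD3e-/- sham, 7518 CPM in WT TAC, 6497 CPM in CD3e-/- TAC and 7467 CPM in CD8-depleted TAC. Its part in the Cd14 values was not tested.

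Ly96, which encodes MD-2, had 48.0 CPM (46.1 to 49.9) in WT sham, 32.2 CPM (30.7 to 33.7) in CD3e-/- sham, 34.5 CPM (33.5 to 35.5) in WT TAC, 35.2 CPM (34.1 to 36.4) in CD3e-/- TAC and 38.6 CPM in CD8-depleted TAC. WT sham stood above the other 4 groups, which lay close together. The share of thinned cells with a Ly96 read went the other way, from 20.6% in WT sham to 24.9% in WT TAC, so no order of these groups is read from it. Its partner Tlr4 had 38.5 CPM in WT sham and 38.6 CPM in WT TAC.

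The remaining members differed little between WT sham and WT TAC. Tlr2 went from 131 to 153 CPM (log2 0.22) and Tlr7 from 117 to 121 CPM (0.04). Tlr3, at 11.5 CPM in WT sham and 16.0 CPM in WT TAC, had 42.6% of its WT sham reads in 5 cells, so that its log2 ratio of 0.45 rests on few cells.

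**Figure D2:**
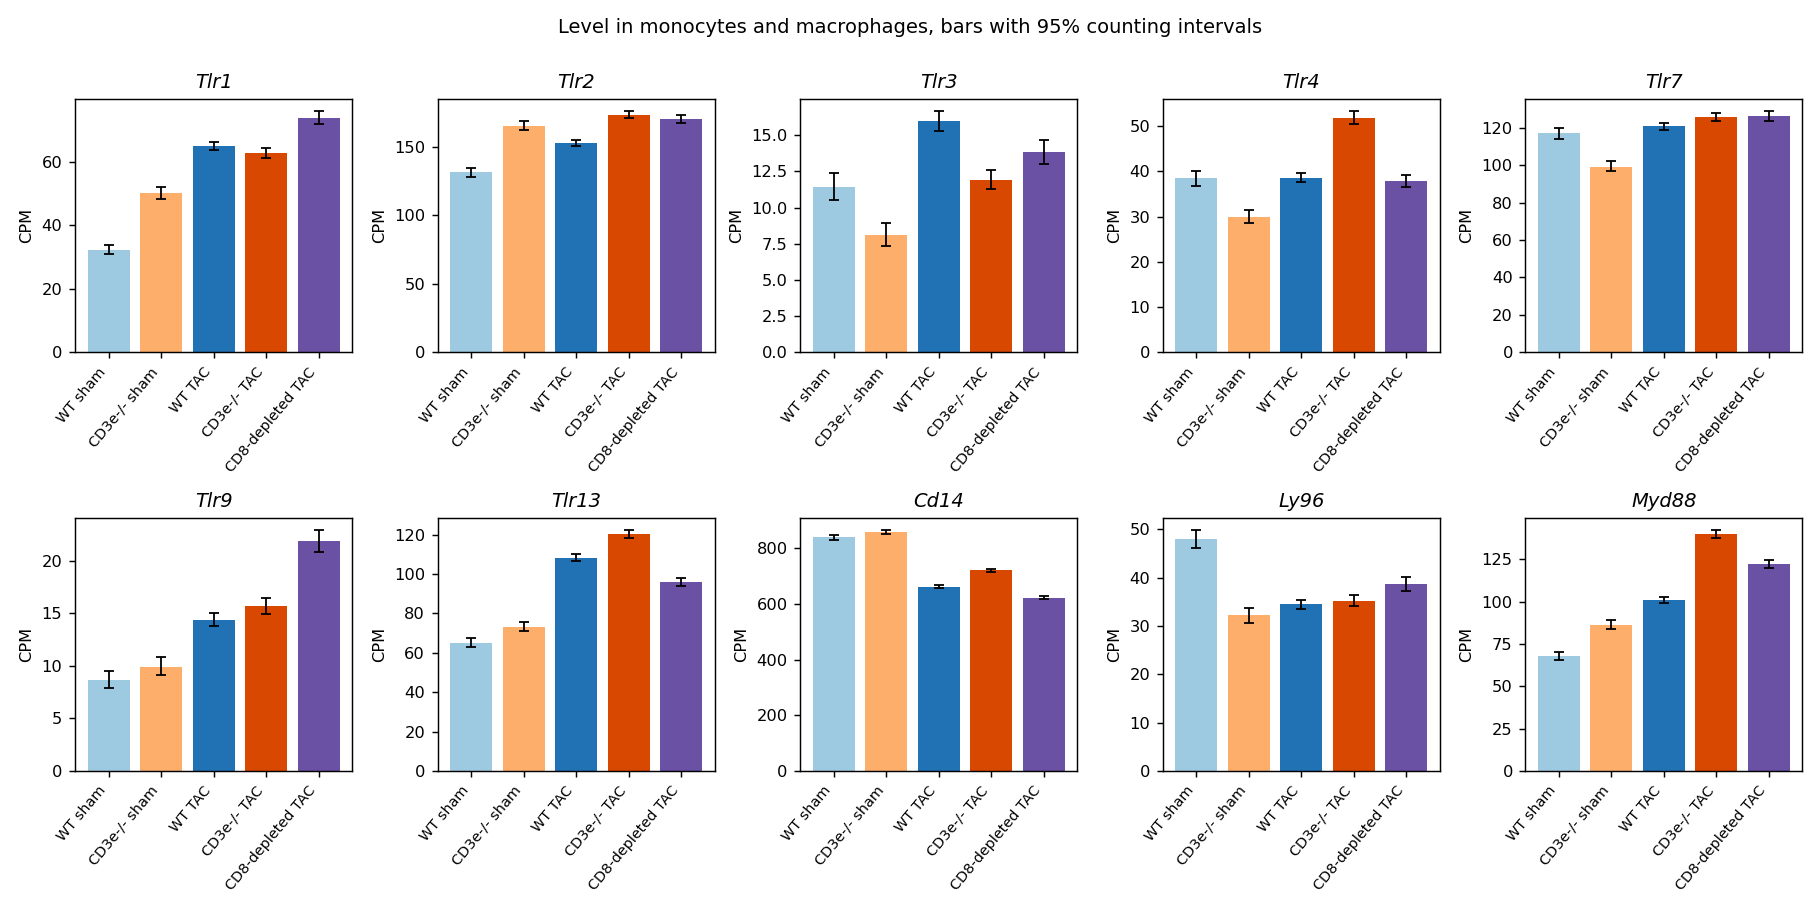
Level of the 10 members in monocytes and macrophages of the 5 groups, in CPM from 0, with exact 95% Poisson intervals that cover counting error only. Tlr1, Tlr9 and Tlr13 stand higher in the 3 TAC groups than in both sham groups, and Cd14 stands lower.

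The second comparison asked the same in mice without T cells. In CD3e-/- TAC against CD3e-/- sham, 4 of 10 members were at least 1.5-fold higher and 0 lower, beside 7.59% of all genes tested higher and 5.14% lower. These were Tlr4, Tlr13, Myd88 and Tlr9, with a median log2 ratio over the members of 0.42 beside 0.05 over all genes. Tlr13 and Tlr9 were thus past the fold in both genotypes. The sham samples of the 2 comparisons are different cells, and no difference between the genotypes was tested.

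Tlr4, the lipopolysaccharide receptor, had 30.0 CPM (28.5 to 31.5) in CD3e-/- sham and 51.9 CPM (50.5 to 53.3) in CD3e-/- TAC, with a log2 ratio of 0.77, while WT sham, WT TAC and CD8-depleted TAC lay between 37.8 and 38.6 CPM. CD3e-/- sham was the lowest and CD3e-/- TAC the highest group. Within CD3e-/- mice the ratio was 1.04 in Ccr2-low (35.3 to 73.5 CPM), 0.91 in Ly6c2-high (17.1 to 33.0 CPM) and 0.89 in Ccr2-high cells (23.3 to 44.0 CPM), so that 3 of 3 gate classes with enough cells moved alike. The ratio was smaller where cells counted equally. It was 0.26 after each cell was thinned and 0.43 as the mean of single cells, both below 1.5-fold. The share of thinned cells with a Tlr4 read was 22.4% (18.6 to 26.7) in CD3e-/- sham and 34.6% (30.9 to 38.5) in CD3e-/- TAC, and 27.4% and 41.7% before thinning.

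Tlr13 went from 73.1 to 120.4 CPM in CD3e-/- mice (log2 0.71), and the share of cells with a read from 39.7% to 59.1%. As in WT, Ccr2-high cells had the highest ratio among the gate classes, 1.06, from 48.1 to 101 CPM. Myd88 went from 86.5 to 140.2 CPM (log2 0.69) with shares of 41.4% and 62.9%, and its ratio was 0.69 in Ccr2-high, 0.49 in Ly6c2-high and 0.23 in Ccr2-low cells. Tlr9 went from 9.92 to 15.7 CPM (log2 0.61), with 1.19 in Ly6c2-high cells and -0.11 in Ccr2-high cells. The Tlr9 difference was uneven between classes. Of the Tlr9 reads of CD3e-/- sham monocytes and macrophages, 32.0% came from 5 cells, and under 3 of 10 other settings the ratio lay below 1.5-fold, at 0.32 in the lowest case.

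Tlr1 had a log2 ratio of 0.31 in CD3e-/- mice, from 50.3 to 62.8 CPM, with 0.91 in Ly6c2-high, 0.60 in Ccr2-high and -0.48 in Ccr2-low cells. Tlr3 had 0.50, Tlr7 0.34, Ly96 0.13, Tlr2 0.07 and Cd14 -0.25, none of them past 1.5-fold. In Ly6c2-high cells of CD3e-/- mice, of which the sham group held 34, Tlr2 was at 362 CPM in sham and 174 CPM after TAC, and Cd14 at 1029 and 594 CPM.

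**Figure D3:**
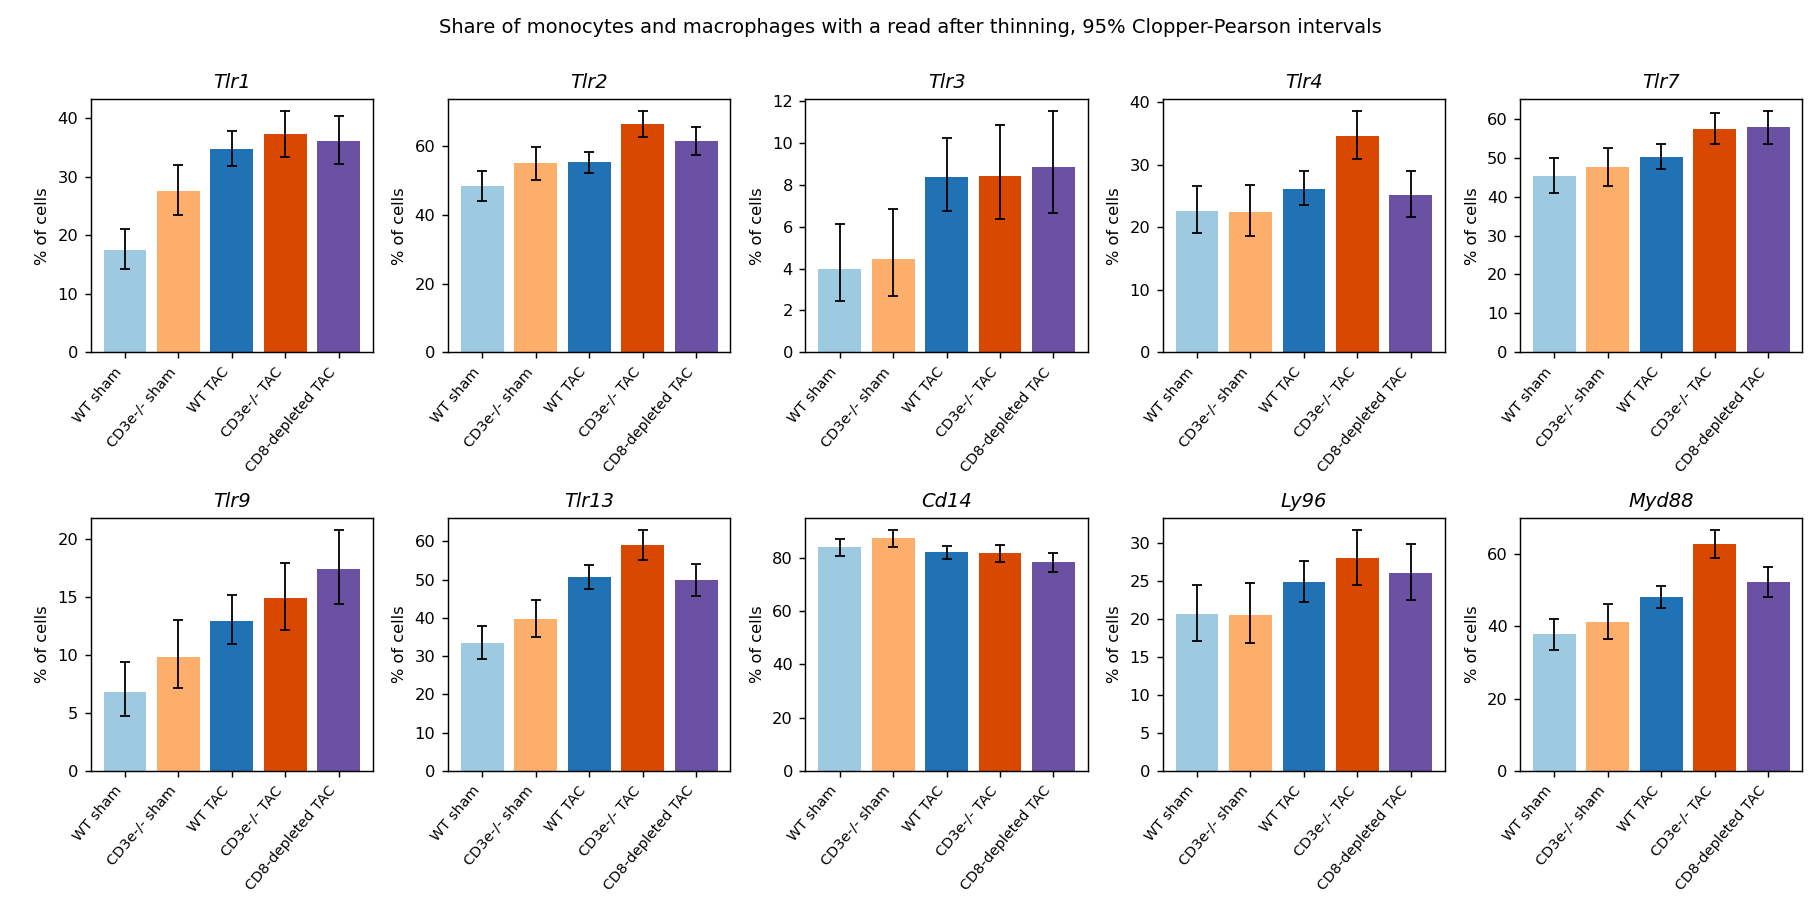
Share of monocytes and macrophages with at least 1 read of each member after thinning to equal depth, in percent from 0, with 95% Clopper-Pearson intervals. The share of every member but Cd14 is higher in each TAC group than in either sham group, and the share of Cd14 exceeds 78% in every group. How many of all genes did the same was not computed.

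The makeup of monocytes and macrophages differed between the groups. Ly6c2-high cells made up 4.26% of the gate in WT sham, 7.17% in CD3e-/- sham, 14.1% in WT TAC, 24.96% in CD3e-/- TAC and 23.2% in CD8-depleted TAC, and Lyve1-high cells 12.3%, 6.33%, 4.70%, 2.14% and 4.83% in the same order. The class shares of reads, which are not these shares of cells, were then held in every group at those of WT sham. The WT ratio of Myd88 was 0.26 at these fixed shares where 0.57 was observed. Its CD3e-/- ratio was 0.30 where 0.69 was observed. The larger part of the Myd88 difference was thus absent at fixed shares. The fixed shares also weight Lyve1-high and Cd209a-high cells, of which CD3e-/- TAC held 14 and 5, under the minimum of 20. For Tlr13 the ratios at fixed shares were 0.75 (WT) and 0.60 (CD3e-/-), for Tlr1 0.93 and 0.05, for Tlr4 0.20 and 0.77, and for Tlr9 0.55 and 0.38. At fixed shares, Tlr1 in WT, Tlr13 in both genotypes and Tlr4 in CD3e-/- mice were past 1.5-fold with TAC, and Tlr9 was not.

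**Figure D4:**
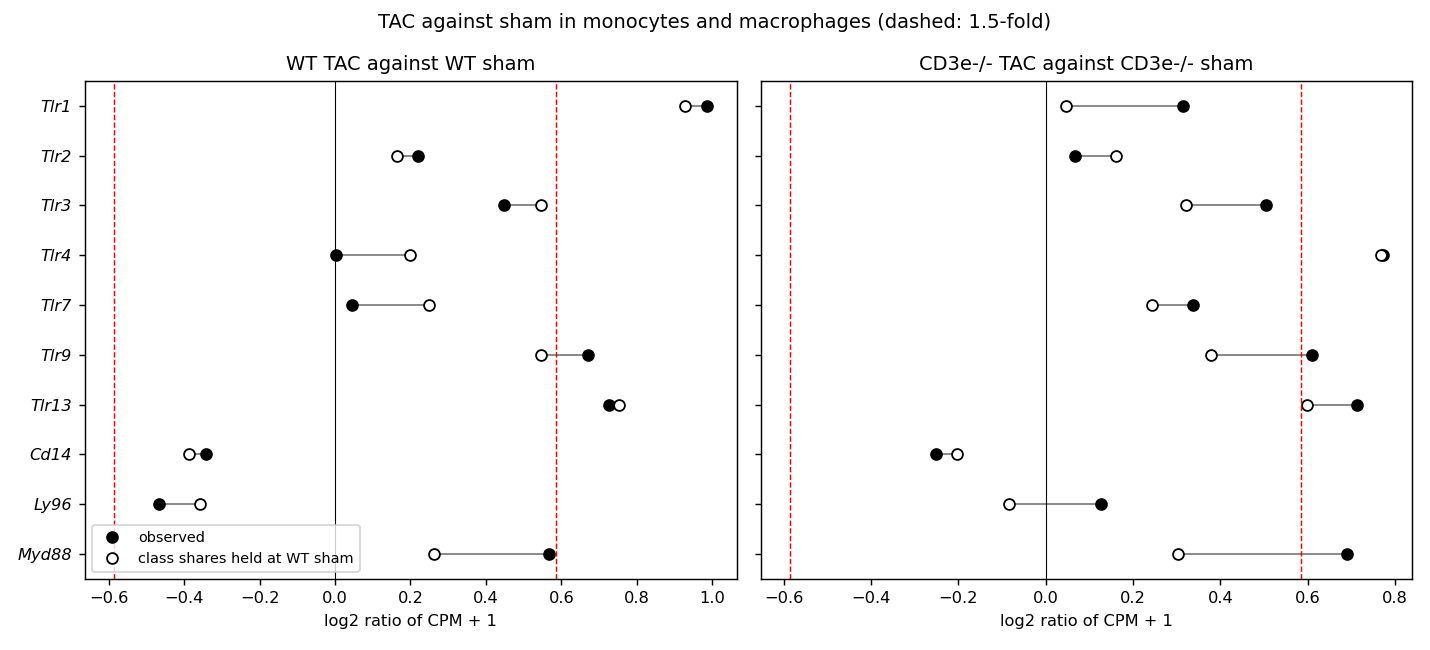
Log2 ratio of TAC to sham in monocytes and macrophages of WT (left) and CD3e-/- mice (right), as observed (filled) and with the class shares of reads held at those of WT sham (open). Dashed lines mark 1.5-fold. Myd88 moves from 0.57 to 0.26 and from 0.69 to 0.30, whereas Tlr13 in WT and Tlr4 in CD3e-/- mice hardly move.

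**Figure D5:**
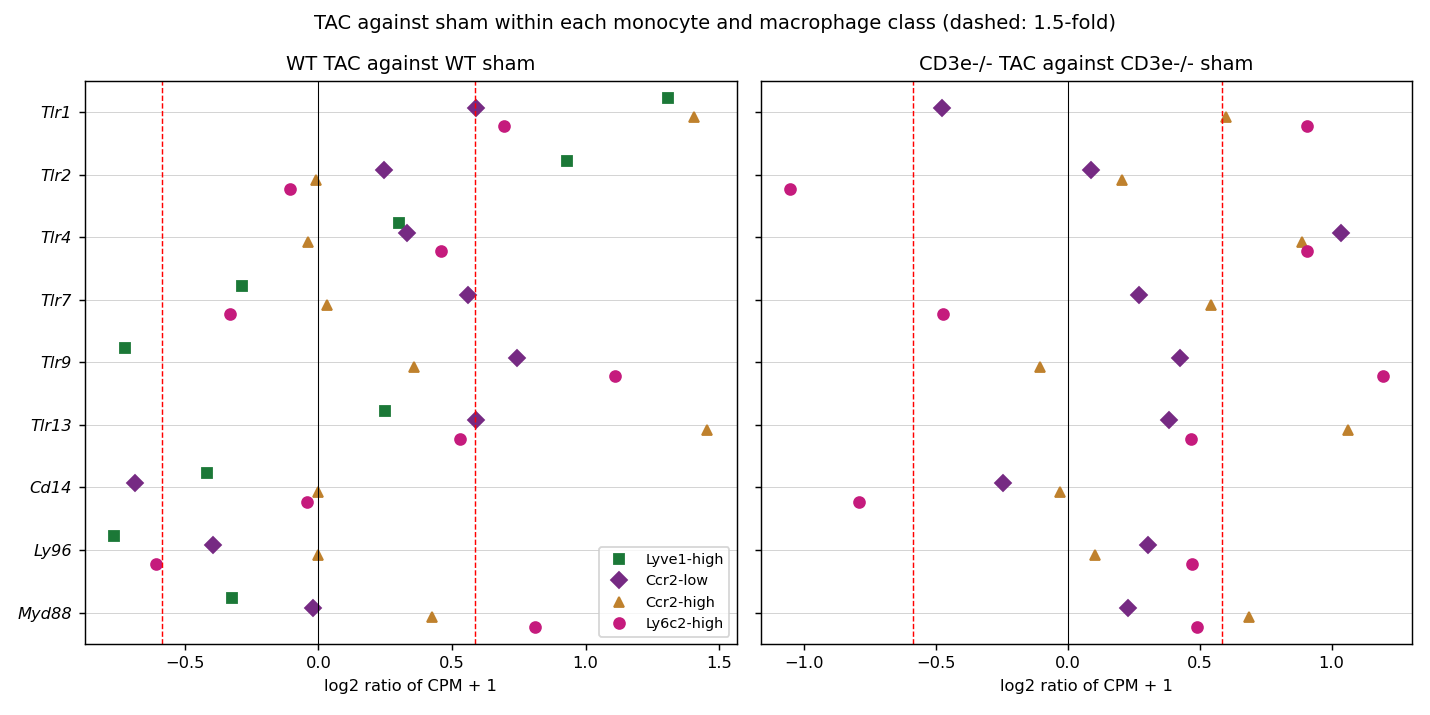
Log2 ratio of TAC to sham within Lyve1-high, Ccr2-low, Ccr2-high and Ly6c2-high cells for all members but Tlr3, which had 0 reads in Ly6c2-high cells of WT sham; dashed lines mark 1.5-fold, and Lyve1-high cells are missing on the right, where CD3e-/- TAC held 14. Tlr13 lies right of 0 in every class shown, with its highest values in Ccr2-high cells.

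The third comparison set the unstressed hearts of CD3e-/- and WT mice side by side, using the sham cells of both comparisons above. In CD3e-/- sham against WT sham, 1 of 10 members was higher (2.74% of all genes) and 0 were lower (4.68% of all genes). It was Tlr1, at 50.3 against 32.3 CPM with a log2 ratio of 0.62, which lay below 1.5-fold when every gate was halved or doubled or 10 CPM were added. The share of thinned cells with a Tlr1 read was 27.6% (23.4 to 32.1) against 17.4% (14.2 to 21.0). Ly96 lay just inside the limit on the lower side with -0.56, Tlr3 had -0.45, Tlr4 -0.35 and Tlr7 -0.24, and the other members ranged from 0.03 for Cd14 to 0.35 for Myd88. Markers of fibroblasts were also higher in monocytes and macrophages of CD3e-/- sham, where the 4 genes of the list summed to 58.0 CPM against 1.70 to 6.15 CPM in the other groups, and neutrophil markers summed to 152 CPM against 66.8 CPM in WT sham. Their part in the member values was not tested.

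After TAC, mice without T cells or with the antibody to CD8 were set against WT TAC, and both comparisons share the WT TAC cells. In CD3e-/- TAC against WT TAC, 0 of 10 members were past 1.5-fold, where 1.44% of all genes were higher and 1.80% lower. The largest ratios were 0.47 for Myd88 (140.2 against 101 CPM), 0.42 for Tlr4 (51.9 against 38.6 CPM) and -0.39 for Tlr3 (11.9 against 16.0 CPM). Myd88 was above WT TAC in 3 of 3 gate classes, by 0.28 to 0.35, and so was Tlr4, by 0.36 to 0.57. Where cells counted equally, as the mean of single cells or with each cell thinned, Myd88 was past 1.5-fold, at 0.61 in the highest case. The share of thinned cells with a Myd88 read was 62.9% (59.0 to 66.8) in CD3e-/- TAC and 48.1% (45.0 to 51.3) in WT TAC. In CD8-depleted TAC against WT TAC, 0 of 10 members were past 1.5-fold, where 1.11% of all genes were higher and 1.02% lower. Tlr9 came nearest with 0.57 (21.9 against 14.4 CPM), Myd88 had 0.27, Tlr13 -0.17 and Tlr4 -0.03. In Ly6c2-high monocytes Tlr9 was 37.0 CPM (34.3 to 39.9) in CD8-depleted TAC, 27.8 CPM (25.8 to 29.8) in CD3e-/- TAC and 20.4 CPM (18.5 to 22.5) in WT TAC. Ccr2-low cells had the opposite order, with 9.43 CPM in CD8-depleted TAC (log2 -0.68 against WT TAC), 11.4 CPM in CD3e-/- TAC (-0.42) and 15.7 CPM in WT TAC. Over all kept cells Tlr3 stood at 34.1 CPM in WT TAC and 20.7 CPM in CD3e-/- TAC, a log2 ratio of -0.70, while Xcr1-high cells, where Tlr3 was highest, made up 3.53% and 2.07% of the cells. Fewer cells of a class and less RNA per cell cannot be told apart in such a sum.

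Receptors and their partners were also compared within single cells, which are not replicates and differ in quality. In thinned monocytes and macrophages, a Ly96 read was found in 30.2% of 831 cells with a Tlr4 read and in 22.4% of 2295 cells without, and a Cd14 read in 86.0% and 81.2%. The Cd14 shares were 75.8% and 76.3% in Ly6c2-high cells, while in the other gate classes the share was higher with a Tlr4 read. A Tlr2 read was found in 60.6% of 992 cells with a Tlr1 read and in 56.1% of 2134 cells without, but this was 66.0% and 54.0% in Ccr2-high cells and 52.2% and 55.0% in Ccr2-low cells. The 95% intervals of the shares with and without a Tlr1 read did not overlap in Ccr2-high cells (60.9 to 70.8% and 50.4 to 57.5%) and overlapped in Ccr2-low cells. The difference between these classes was not tested. For the endosomal RNA sensors, a Tlr13 read was found in 54.3% of 1623 cells with a Tlr7 read and in 41.0% of 1503 cells without.

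The genes most alike to each member were sought over 39 pairs of class and group among 9320 genes, by the Pearson correlation of log2(CPM + 1). These pairs share 1 library and the same mice across classes, and the values are a description. Cd14 was most like Igsf6 (r = 0.93), Vsir (0.92) and Cx3cr1 (0.92), and Tlr2 was most like Rnf149 (0.92), Ap1s2 (0.92) and Nfam1 (0.91). Tlr4 was most like the lysosomal acid phosphatase gene Acp2 (0.92), Cd302 (0.90) and Creg1 (0.90), and Tlr7 was most like the complement receptor gene C3ar1 (0.92), Zswim6 (0.91) and Fgd4 (0.91). Tlr13 was most like the interferon-inducible genes Ifi204 (0.90) and Ifi207 (0.90) and the phagosomal metal transporter Slc11a1 (0.90). Tlr1 was most like Pou2f2 (0.89), a B cell transcription factor, Il4ra (0.83) and Tec (0.83), and Tlr3 was most like Ppt1 (0.87), Txndc15 (0.87) and Fmnl2 (0.86). Ly96 was most like Tmem86a (0.86), Atp6v0b (0.85) and Zswim6 (0.84), and Myd88 was most like Tspo (0.86), Gm6210 (0.83) and Psma7 (0.83). Tlr9 had the weakest likeness, with Ptpn1 (0.74), Tor1aip1 (0.69) and Sap30 (0.69). Among the members themselves, Tlr2 and Cd14 were the most alike of the pairs with Tlr2 (r = 0.85), and Tlr1 and Tlr3 ran opposite (r = -0.65).

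Beyond the members, other genes of the pathway were taken from lists by role, of which 46 of 56 genes had a mean of at least 10 CPM in monocytes and macrophages. Of 7 trafficking genes tested, which fold TLRs, carry them to endosomes or cleave them there, 3 were higher and 0 lower in WT TAC against WT sham, and the same counts held in CD3e-/- mice. These were the proteases Ctss and Lgmn in both genotypes, with Slc15a3 in WT and Slc15a4 in CD3e-/- mice, a pair of lysosomal transporters, and all of them were named after their values were seen. Ctss had log2 ratios of 0.69 in WT and 0.85 in CD3e-/- mice, and Lgmn 0.64 and 0.83. Of 19 signalling genes, 1 was higher and 1 lower in WT, and 1 was higher and 0 lower in CD3e-/- mice. Beside these counts, 5.26% of all genes tested were higher and 4.00% lower in WT, and 7.59% and 5.14% in CD3e-/- mice. The higher gene was Irf7 in both, with 53.2 CPM in WT sham, 67.5 CPM in CD3e-/- sham, 237 CPM in WT TAC, 369.9 CPM in CD3e-/- TAC and 359 CPM in CD8-depleted TAC. MyD88 activates the protein of this transcription factor from endosomes. The RNA levels do not show such activation, and a part of TLR signalling in them was not tested. Irf7 separated sham from TAC more widely than any member, with log2 ratios of 2.14 in WT and 2.44 in CD3e-/- mice. Against WT TAC, Irf7 alone of the 19 was past 1.5-fold, with 0.64 in CD3e-/- TAC and 0.60 in CD8-depleted TAC. Beside this, 1.44% and 1.11% of all genes tested were higher.

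Among the target genes, more were past 1.5-fold lower than higher after TAC. Beside the counts of TAC against sham in this paragraph, 5.26% of all genes tested were higher and 4.00% lower in WT. In CD3e-/- mice 7.59% were higher and 5.14% lower. Of 6 inhibitors tested, 0 were higher and 2 lower in WT, and 0 were higher and 3 lower in CD3e-/- mice, among them Tnfaip3, the NF-kB inhibitor A20, with log2 ratios of -0.91 and -1.20, and Il1rl1, the interleukin-33 receptor, with -1.51 and -2.48. Of 9 target genes tested, 2 were higher and 5 lower in WT and 1 was higher and 6 lower in CD3e-/- mice, with medians of -0.64 and -0.90 beside 0.03 and 0.05 over all genes tested. Tnf had -0.99 and -1.48, Ccl3 -0.64 and -1.52, Ccl4 -0.68 and -1.29, and Nfkbiz -1.26 and -1.16. Il6 had 28.6 CPM in WT sham, 5.84 CPM in WT TAC, 18.8 CPM in CD3e-/- sham and 17.7 CPM in CD3e-/- TAC. Cxcl2 had -0.37 and -0.90, and Ptgs2 had 0.70 and -0.59. The interferon-inducible chemokine gene Cxcl10 was the exception in both genotypes, with 2.12 in WT and 0.84 in CD3e-/- mice. Over the 9 target genes, CD3e-/- sham against WT sham had 4 higher and 0 lower (median 0.52), beside 2.74% and 4.68% of all genes. Both genotypes thus started from unlike sham levels. CD3e-/- TAC against WT TAC had Il6 (1.45) higher and Cxcl10 (-0.68) lower (median -0.08), beside 1.44% and 1.80% of all genes. In CD8-depleted TAC against WT TAC only Ptgs2 (0.69) was past the fold among them, beside 1.11% of all genes higher and 1.02% lower. The inhibitor Il1rl1 was lower in both these comparisons (-1.27 and -0.61). Of 5 other receptors and cofactors, 0 were higher and 1 lower with TAC in WT, and 1 was higher and 1 lower in CD3e-/- mice. The higher one was Tlr6 (0.63), and the lower one in both was the scavenger receptor Cd36 (-0.95 and -1.48). The summed digestion list given with Cd14 was lower in the same groups, and its part in the target gene values was not tested.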

How the data were processed

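The deposited matrix holds raw counts of reads per gene and cell barcode from 1 pooled BD Rhapsody and TAS-Seq library, per the file headers and the values, after error correction and without normalization by the authors. The authors assigned hashtags to barcodes, and the submitters' processing notes name cutadapt 2.10, Bowtie2 2.4.2 and build GRCm38. How reads on paralogs were counted is not given in the sources used here. Of 5363 columns, 48 were not used, of which 40 carried the name doublet and 8 had no hashtag. The hashtag of each group was taken from the notes deposited with the matrix. No cell number was shared between hashtags, and no further doublet caller was run. The study's methods state a larger share of doublets than these columns make up, and whether others were removed before deposit is not given in the sources used here, so that genes found together in a cell may include doublets.

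A gene had to be found in at least 5 cells (27767 were), and a cell needed 500 genes or more with no more than 0.4 of its reads from mitochondrial genes (5263 passed). Further gates were Lyve1 at 200, Cd209a at 500, Ly6c2 at 500, Ccr2 at 1000, Xcr1 at 100 and Cd79a at 500 CPM. Cells in both the Cd79a gate and the monocyte and macrophage gate (37) and cells that passed only part of the gates (443) formed no class. A class needed 20 cells in a group. The members, lists, gates and rules were chosen with earlier results of these data known. All 10 members are named, with the 3 genes most alike to each, and pathway genes past 1.5-fold in 2 or more comparisons, at most 12. Tlr6, Ctss, Lgmn, Slc15a3 and Slc15a4 were named besides, after their values were seen. Ratios were computed from summed counts with 1 CPM added, on genes with a mean of at least 10 CPM over the groups. With 1 sample per group no test was run. The ratio script was tested on simulated data. The software was Python 3.11.15 with pandas 2.3.3, matplotlib 3.10.9, scipy 1.17.1 and, for arrays, numpy 2.4.6. Promoter sequences came from RefSeq.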

Additional observations from a re-analysis of the deposited data

Results flagged for a closer look

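Ly96, which encodes MD-2, was picked out because its TAC to sham log2 ratio in monocytes and macrophages was -0.47 in WT and 0.13 in CD3e-/- mice, each beyond the counting intervals. The difference between the genotypes was not tested. With class shares of reads held at those of WT sham, the ratios were -0.36 and -0.08, the latter weighting Lyve1-high and Cd209a-high cells, of which CD3e-/- TAC held only 14 and 5. The 4 gate classes of WT had ratios from -0.76 to -0.00, and the 3 of CD3e-/- mice from 0.10 to 0.47. The CD3e-/- ratio kept its sign under 7 of 10 other settings and was -0.09 with every gate doubled, -0.06 as the mean of single cells and -0.04 with each cell thinned. Of the thinned cells, 20.6% of WT sham, 24.9% of WT TAC, 20.6% of CD3e-/- sham and 28.0% of CD3e-/- TAC carried a Ly96 read.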

How the results depend on the processing

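The counts of members past 1.5-fold were recomputed under 12 other settings. For WT TAC against WT sham (3) the count moved by more than 1.5 times under a fold of 2 alone, to 0. Without the 5 cells richest in each member it was 4, Tlr3 (log2 0.90) then missing the level filter. For CD3e-/- TAC against CD3e-/- sham (4) it was 1 with every gate doubled and 0 under a fold of 2. For CD3e-/- sham against WT sham (1) it was 0 with every gate doubled, with 10 CPM added or under a fold of 2, 3 as the mean of single cells and 2 with each cell thinned. For CD3e-/- TAC against WT TAC (0) it was 1 as the mean of single cells and 1 with each cell thinned. For CD8-depleted TAC against WT TAC (0) it was 1 with every gate halved, as the mean of single cells or with median-of-ratios size factors. The causes were not tested.

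Leaving out the 5 cells richest in each member per group, or the 27 of 3375 gate cells with 100 CPM or more of S100a8 and S100a9 together, was added after the data were seen. The 8 member ratios past 1.5-fold kept their direction in 80 of 80 recomputations under 10 settings and stayed past it in 66. The class with the highest level was the same in 28 of 30 recomputations. The exceptions were both Tlr13, which was then highest in Ccr2-low cells. No replicate could be left out and no paired analysis was possible because each group was 1 sample.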
